A study of Mus musculus with 36 samples.

Results

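The 10 genes described here encode enzymes that make serine and glycine, break them down and pass their carbon on to folate and to the methionine cycle. They were taken by name, as Phgdh, Psat1, Psph, Shmt1, Shmt2, Mthfd2, Gldc, Gnmt, Mat1a and Bhmt, and are 10 of the 22558 genes listed in each of 2 deposited tables. Total RNA of C57BL/6 mice was sequenced after ribosomal RNA depletion, in 36 libraries. They comprise 6 libraries each from mice given DMOG, roxadustat or PBS, the vehicle control, for each of 2 tissue labels, retina and liver. DMOG and roxadustat block the oxygen-dependent hydroxylation by which cells keep HIF, the transcription factor of the hypoxia response, low. All mice are of the same strain, and no transgene or deletion is named. The labels give no dose, route, time, age or sex, and say nothing on whether a replicate is its own animal or a pool. The p-values therefore rest on the spread among libraries of a group, which may be technical.

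The tissue labels and the transcriptomes were crossed. In the 18 libraries labelled retina, 4 of 6 hepatocyte markers were above 0 and the 6 summed to 14470 to 24200 FPKM (read fragments per length of transcript and per size of the library), while the sum of 5 rod photoreceptor markers was 1.05 to 2.60 FPKM. In the 18 libraries labelled liver, the rod sum was 6229 to 11670 FPKM and the hepatocyte sum 40.7 to 232.9 FPKM. The remaining 2 hepatocyte markers, Ahsg and Trf, were listed at 0 in every library labelled retina. The libraries labelled retina are therefore called liver RNA here, and those labelled liver are called retina RNA. In the liver RNA, 1 library stood apart from its group. The mean log2 level of 12 known HIF targets was 3.74 in DMOG replicate 5, against 5.48 to 6.05 in the other 5 DMOG libraries, 4.94 to 5.19 in the roxadustat libraries and 3.56 to 3.81 in the PBS libraries. The enzyme calls and list counts of liver RNA are given with and without it. It was singled out by genes that respond to DMOG, so results without it are not a separate test of the DMOG effect. Libraries summed to 433021 to 540324 FPKM in liver RNA and to 542785 to 617853 FPKM in retina RNA. Read counts are not given, so the absolute depth behind a value is unknown. Relative depth was estimated from ratios of the lowest values between libraries. In retina RNA it averaged 0.857 ± 0.0563 with PBS, 1.07 ± 0.144 with DMOG and 1.07 ± 0.164 with roxadustat (SD, n = 6). In liver RNA the averages were 1.03, 0.991 and 0.982 in the same order. The estimate rests on 3.0% to 23.4% of the low genes of a library, and its part in the results was not tested.

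Cells make serine from a glycolytic intermediate in a short pathway of PHGDH, PSAT1 and PSPH. Serine hydroxymethyltransferase, cytosolic as SHMT1 and mitochondrial as SHMT2, splits serine into glycine and a 1-carbon unit carried by folate, which MTHFD2 oxidises in mitochondria, and the glycine cleavage system, whose decarboxylase is GLDC, draws a further unit from glycine. In liver, these units and betaine feed the methionine cycle, where BHMT remakes methionine, MAT1A turns it into S-adenosylmethionine and GNMT spends the surplus by methylating glycine.

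The promoters of the 3 genes called with DMOG in liver RNA are shown because HIF binds a short core, ACGTG or GCGTG. Each window runs from 250 bases before to 50 bases after the start of the gene, 5′ to 3′ on the strand of the gene, in RefSeq coordinates of GRCm38.p6, and not of the mm9 build that the deposited values were made with. Capitals mark a HIF core on either strand. Shmt2 lies at chr10:127522395-127522694, Shmt1 at chr11:60811216-60811515 and Gldc at chr19:30175392-30175691, all on the minus strand.
Shmt2: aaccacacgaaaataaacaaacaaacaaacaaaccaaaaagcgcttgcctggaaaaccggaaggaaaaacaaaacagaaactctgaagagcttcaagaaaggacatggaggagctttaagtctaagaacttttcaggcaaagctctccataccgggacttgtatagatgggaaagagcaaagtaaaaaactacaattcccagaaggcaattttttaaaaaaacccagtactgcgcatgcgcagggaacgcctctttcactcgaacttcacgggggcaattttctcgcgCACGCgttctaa
Shmt1: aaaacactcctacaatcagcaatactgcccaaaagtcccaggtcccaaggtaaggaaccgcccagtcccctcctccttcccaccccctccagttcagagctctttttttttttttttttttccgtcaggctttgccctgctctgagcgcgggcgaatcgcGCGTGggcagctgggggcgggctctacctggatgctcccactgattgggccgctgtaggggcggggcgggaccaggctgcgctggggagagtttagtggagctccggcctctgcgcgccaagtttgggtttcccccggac
Gldc: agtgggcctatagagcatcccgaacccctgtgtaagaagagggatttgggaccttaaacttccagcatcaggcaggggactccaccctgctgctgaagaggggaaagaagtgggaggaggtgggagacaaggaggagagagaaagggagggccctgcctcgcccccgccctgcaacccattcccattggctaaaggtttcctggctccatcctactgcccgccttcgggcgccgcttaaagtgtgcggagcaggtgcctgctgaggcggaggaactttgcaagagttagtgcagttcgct
The Shmt1 window held 1 GCGTG starting at base 161. The Shmt2 window held 1 on the opposite strand, at bases 289 to 293, which reads CACGC as printed. The Gldc window held no core. RefSeq windows were matched for 9 of the 10 genes, with Mat1a unmatched. Of the others, Phgdh had 1 GCGTG, Gnmt had 3, Psph had 2 with 1 ACGTG, and Psat1 had 2 GCGTG in each of its 2 windows with 1 ACGTG in the second, while the windows of Mthfd2 and Bhmt held neither core. No match overlapped another. TGATGNAA, the element of ATF4 and C/EBP proteins, was found in no window on either strand. Of 32851 mouse promoter windows of the same length, 43.8% held at least 1 HIF core, 32.4% held GCGTG, 19.6% held ACGTG and 3.97% held TGATGNAA, so a core is a common match.

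In liver RNA, the methionine cycle enzymes stood highest and the serine synthesis enzymes near the bottom. In PBS livers Bhmt averaged 1611 ± 232 FPKM, Mat1a 799.97 ± 101 FPKM and Gnmt 248 ± 54.6 FPKM (SD, n = 6). Shmt1 followed with 84.2 ± 6.75 FPKM, Gldc with 63.7 ± 6.91 FPKM and Shmt2 with 43.2 ± 3.66 FPKM. Psat1, the aminotransferase of serine synthesis, averaged 12.7 ± 2.15 FPKM. Phgdh at 6.37 ± 0.906 FPKM, Psph at 6.06 ± 0.238 FPKM and Mthfd2 at 4.25 ± 0.938 FPKM were lowest, and the first 2 differed by less than their spread. In retina RNA the order of the PBS libraries was another one. Gldc averaged 32.3 ± 4.91 FPKM and Psat1 28.1 ± 4.56 FPKM, within the spread of each other, followed by Psph at 22.8 ± 0.946 FPKM, Shmt2 at 15.9 ± 2.38 FPKM, Phgdh at 13.8 ± 5.64 FPKM and Mthfd2 at 5.36 ± 0.763 FPKM. Gnmt averaged 0.903 ± 0.179 FPKM and Shmt1 0.657 ± 0.198 FPKM. Over all 18 retina RNA libraries Mat1a had a median of 0.0168 FPKM and Bhmt was above 0 in only 2, so neither was tested there. The tables were scaled separately, so levels are not compared between them.

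**Figure D1:**
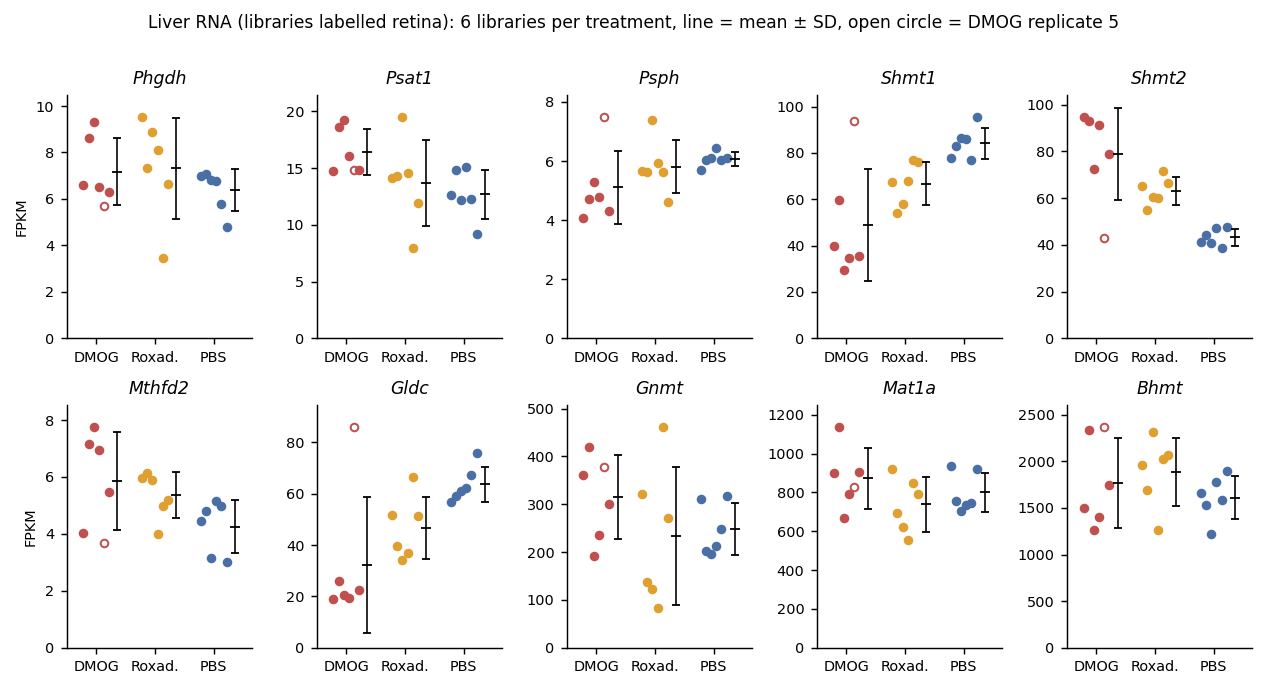
Level of each enzyme in liver RNA (libraries labelled retina), in FPKM on linear axes from 0, with 6 libraries per treatment as points and the mean ± SD as a line beside them; the open circle is DMOG replicate 5. Shmt2 is high and Shmt1 and Gldc are low in 5 of the 6 DMOG libraries, while the open circle lies near or beyond the PBS libraries, and Gnmt, Mat1a and Bhmt overlap in all 3 treatments.

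The first question is what DMOG did to these enzymes in liver RNA. The mitochondrial Shmt2 rose and its cytosolic partner Shmt1 and the glycine decarboxylase gene Gldc fell, and the other 7 did not pass the test. Shmt2 had 43.1, 85.2 and 94.6 FPKM as the lowest, median and highest value in DMOG livers, against 38.6, 42.7 and 47.7 FPKM in PBS livers. All DMOG libraries but replicate 5, the lowest, lay above all PBS libraries. Its log2 fold change was 0.82 ± 0.15 (SE, adjusted p = 0.0014, limma on log2(FPKM + 0.5) with Benjamini-Hochberg adjustment over all genes tested, called at 0.05). Shmt1 had 29.6, 37.7 and 93.7 FPKM in DMOG livers, against 77.0, 84.5 and 95.4 FPKM in PBS livers. Here 5 DMOG libraries lay below every PBS library and replicate 5 was the highest of its group. Shmt1 fell by 0.90 ± 0.20 on the log2 scale (limma adjusted p = 0.00521). Gldc had 18.9, 21.5 and 86.0 FPKM in DMOG livers, against 56.6, 61.5 and 75.7 FPKM in PBS livers. Without replicate 5 the highest DMOG value was 25.8 FPKM, and that library's 86.0 FPKM was above every PBS library. Gldc fell by 1.22 ± 0.28 (limma adjusted p = 0.00566). The 3 calls were lost in 1 of 29 alternatives, the two-sided exact permutation test of the single gene, with p = 0.00866 for Shmt2, 0.013 for Shmt1 and 0.0152 for Gldc before adjustment, and 0.0935, 0.102 and 0.102 after adjustment over 54 such tests. These 3 calls among 10 stand against 20% of all 12657 genes tested, of which 8.26% were higher and 11.7% lower, so the count does not set the enzymes apart as a group. When all library totals were made equal, 17.8% of the genes called were higher, against 41.4% as deposited, and the calls and directions of these 3 enzymes stayed.

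The enzymes that make serine and those of the methionine cycle gave no call with DMOG in liver RNA. Psat1 had 14.8, 15.5 and 19.3 FPKM in DMOG livers, against 9.18, 12.4 and 15.1 FPKM in PBS livers, a log2 difference of 0.37 ± 0.16 (limma adjusted p = 0.108). Psph had a median of 4.75 FPKM in DMOG livers and 6.06 FPKM in PBS livers (-0.25 ± 0.11, limma adjusted p = 0.123), and its 5 DMOG libraries other than replicate 5 lay below every PBS library. Phgdh, the first enzyme of the pathway, differed by 0.15 ± 0.18. Mthfd2 had a median of 6.22 FPKM in DMOG livers and 4.62 FPKM in PBS livers, with a log2 difference of 0.39 ± 0.17 (limma adjusted p = 0.114). The log2 difference was 0.32 ± 0.33 for Gnmt, 0.12 ± 0.14 for Mat1a and 0.10 ± 0.17 for Bhmt, each with groups that overlap. The 95% interval of Bhmt ran from -0.26 to 0.47 and that of Gnmt from -0.37 to 1.01.

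With DMOG replicate 5 left out, 5 of the 10 were called, against 35.5% of all genes, of which 17.3% were higher and 18.1% lower. That library was chosen for its weak DMOG response, so the p-values of this fit are not a separate test of the DMOG effect. Shmt2 averaged 86.0 ± 9.90 FPKM over the other 5 DMOG libraries and its log2 fold change was 0.98 ± 0.087 (limma adjusted p = 2.0e-07). Gldc averaged 21.5 ± 2.84 FPKM and fell by 1.55 ± 0.14 (limma adjusted p = 3.0e-07), and Shmt1 averaged 39.9 ± 11.6 FPKM and fell by 1.11 ± 0.14 (limma adjusted p = 1.0e-05). The 2 further calls were Psph, the phosphoserine phosphatase gene, with -0.36 ± 0.086 (limma adjusted p = 0.00382) and Mthfd2 with 0.50 ± 0.16 (limma adjusted p = 0.0221). In bulk RNA, fewer cells of a type and less RNA per cell cannot be told apart. The sum of 5 macrophage markers, all above 0, was 227.5 to 621.3 FPKM in DMOG livers, with replicate 5 lowest, 256.5 to 551.9 FPKM in roxadustat livers and 285.2 to 521.6 FPKM in PBS livers. With replicate 5 left out, 3 of 5 macrophage markers were called higher with DMOG, Csf1r (0.50), Cd68 (0.39) and Cd5l (0.72). So were 2 of 4 endothelial markers, Pecam1 (0.49) and Cdh5 (0.29), and 1 of 4 cell division markers, Ccnb1 (0.44). With that library kept, Pecam1 was the one call among these 13 markers (0.39, limma adjusted p = 0.0261). The endothelial sum was 60.2 to 92.5 FPKM in DMOG livers, 64.9 to 78.5 FPKM in roxadustat livers and 61.4 to 74.1 FPKM in PBS livers. That of cell division was 81.3 to 135.1 FPKM in DMOG livers, 86.8 to 114.5 FPKM in roxadustat livers and 69.5 to 108.2 FPKM in PBS livers. The hepatocyte sum was 14470 to 24200 FPKM in DMOG livers, 16310 to 21930 FPKM in roxadustat livers and 18180 to 23570 FPKM in PBS livers. The erythroid sum was 1163 to 3196 FPKM, 982 to 2366 FPKM and 843 to 1850 FPKM in the same order. None of 5 erythroid markers was called with DMOG, with or without replicate 5. The part of these cells in the enzyme results was not tested.

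**Figure D2:**
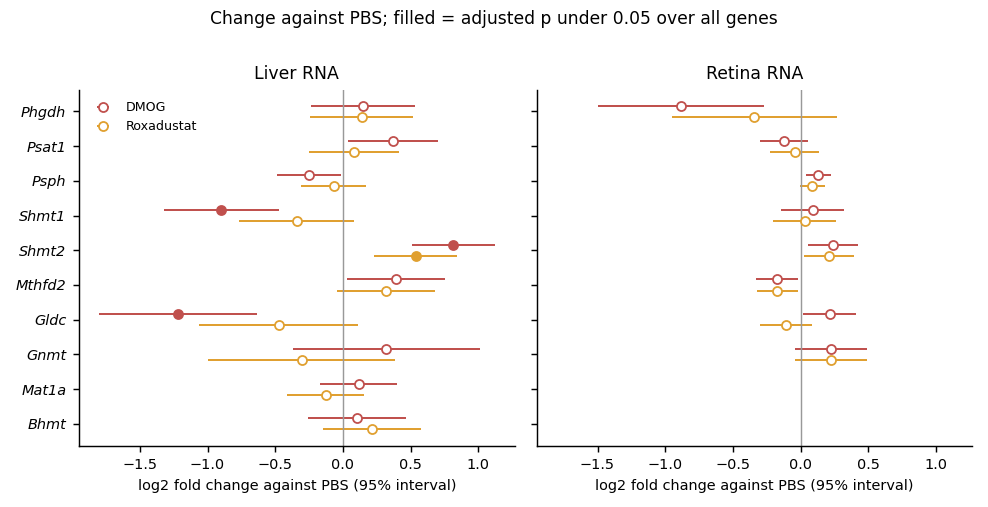
Log2 fold change against PBS of each enzyme with its 95% interval, for DMOG (upper mark of each pair) and roxadustat (lower mark), in liver RNA on the left and retina RNA on the right; filled marks have an adjusted p under 0.05 over all genes. The filled marks are Shmt1 at -0.90, Shmt2 at 0.82 and Gldc at -1.22 with DMOG, and Shmt2 at 0.54 with roxadustat, all in liver RNA; Mat1a and Bhmt were not tested in retina RNA.

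Roxadustat was set against the same PBS livers, so its comparison and that of DMOG share their controls. Shmt2 rose here too and was the sole enzyme called of the 10, against 4.19% of all genes, of which 2.16% were higher and 2.02% lower. It had 54.9, 62.7 and 71.6 FPKM in roxadustat livers, against 38.6, 42.7 and 47.7 FPKM in PBS livers. The groups did not overlap. The share of all genes without overlap, or with 5 of 6 libraries past the other group, was not counted in any comparison. A separation of groups is therefore not shown to be unusual for these enzymes. The log2 fold change was 0.54 ± 0.15 (limma adjusted p = 0.0428), a call close to the threshold that was lost in 16 of 29 alternative settings, with adjusted p-values from 0.000358 to 0.0874. Shmt1 had 54.1, 67.7 and 76.8 FPKM in roxadustat livers and 77.0, 84.5 and 95.4 FPKM in PBS livers, again without overlap. Its log2 difference of -0.34 ± 0.20 was not called (limma adjusted p = 0.382). For Shmt2 and Shmt1 the two-sided exact permutation test of the single gene gave p = 0.00216 each, unadjusted, the smallest that 924 assignments can give. Any 2 groups of 6 without overlap give this value, so it restates the lack of overlap. For Shmt2 it was 0.0584 after adjustment over 54 such tests. Gldc had 34.1, 45.5 and 66.5 FPKM in roxadustat livers, against 56.6, 61.5 and 75.7 FPKM in PBS livers, and 5 of 6 roxadustat libraries lay below every PBS library (-0.47 ± 0.28, limma adjusted p = 0.377). The 3 treatments share 1 estimate of the spread, to which DMOG replicate 5 contributes. Without that library, Shmt2 had an adjusted p of 0.000358 and Gldc one of 0.0358 in limma, 2 calls among 10 against 8.78% of all genes. The other 7 had log2 differences from PBS between -0.31 for Gnmt and 0.32 for Mthfd2, and none was called. Gnmt spread widely, with 84.1, 204 and 462 FPKM as the lowest, median and highest value in roxadustat livers.

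The 2 drugs were then compared with each other in liver RNA. Doses and times are not given, so the comparison is between the treatments as applied. No enzyme was called among the 10, against 2.99% of all genes by limma, which called 379 of them and had 2267 at an unadjusted p under 0.05. The log2 difference of roxadustat over DMOG was 0.74 for Gldc with a 95% interval of 0.16 to 1.33, 0.56 for Shmt1 (0.13 to 0.98) and -0.28 for Shmt2 (-0.58 to 0.03). Replicate 5 of DMOG decided this comparison. Without it, 4 of the 10 were called, against 16.2% of all genes. Gldc was higher in roxadustat livers than in DMOG livers by 1.08 ± 0.14 (limma adjusted p = 9.1e-05), Shmt1 by 0.77 ± 0.14 (limma adjusted p = 0.00113) and Psph by 0.29 ± 0.086 (limma adjusted p = 0.029), and Shmt2 was lower by a log2 change of -0.44 ± 0.087 (limma adjusted p = 0.00213).

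FPKM is per length, so the 2 serine hydroxymethyltransferase genes can be set side by side within a library. The ratio of Shmt2 to Shmt1 had a median of 2.28 in DMOG livers (0.464 to 2.61), 0.949 in roxadustat livers (0.875 to 1.04) and 0.519 in PBS livers (0.475 to 0.550). The mitochondrial gene was thus the lower of the pair in every PBS library and the higher in 5 of 6 DMOG libraries. The log2 ratio differed between roxadustat and PBS by 0.88 (two-sided exact permutation p = 0.00216, adjusted p = 0.0195 over 9 ratio tests). All 6 roxadustat libraries lay above every PBS library for Shmt2 and below every one for Shmt1, so the ratios could not overlap. This p-value is the smallest that 924 assignments can give and only restates that separation. DMOG and PBS differed by 1.71, which did not pass the adjustment (exact permutation p = 0.0152, adjusted p = 0.0682). Without DMOG replicate 5 the DMOG libraries ran from 1.56 to 2.61, the difference from PBS was 2.09 and that of roxadustat from DMOG was -1.21 (exact permutation, adjusted p = 0.00649 each). The ratios of these groups did not overlap either, so both tests again gave their smallest possible p-value. In retina RNA the medians were 15.5 with DMOG, 16.2 with roxadustat and 14.1 with PBS, and the largest difference, 0.18 between roxadustat and PBS, did not pass the test (exact permutation, adjusted p = 0.626). The ratio of Mat2a, the S-adenosylmethionine synthetase gene of other tissues, to the liver gene Mat1a was near 0.03 in liver RNA with each treatment. Its largest log2 difference was 0.21, for roxadustat over PBS (exact permutation, adjusted p = 0.463).

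**Figure D3:**
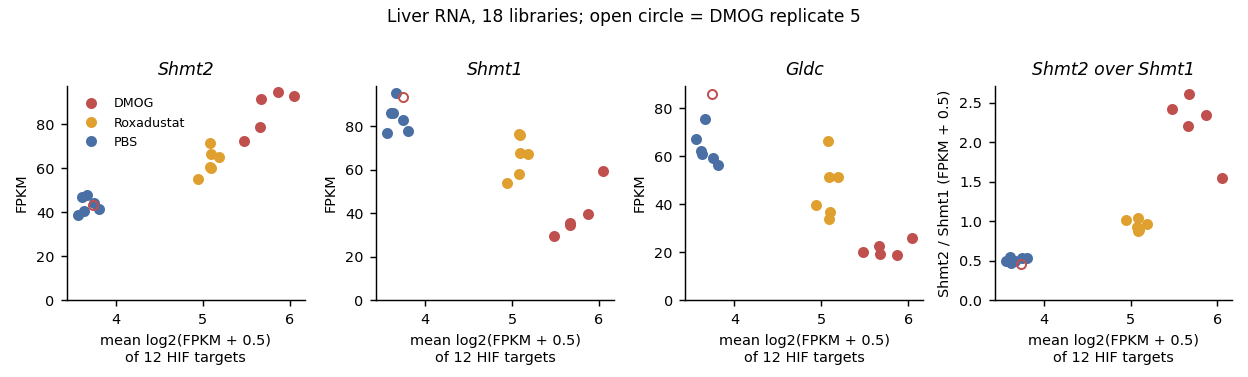
Level of Shmt2, Shmt1 and Gldc (FPKM) and the ratio of Shmt2 to Shmt1 in the 18 liver RNA libraries, against the mean log2(FPKM + 0.5) of 12 HIF targets; colours give the treatment and the open circle is DMOG replicate 5. The PBS libraries (3.56 to 3.81 on the horizontal axis) and the open circle (3.74) lie together, the roxadustat libraries (4.94 to 5.19) lie between, and the other 5 DMOG libraries (5.48 to 6.05) lie at the far end.

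Across the 18 liver RNA libraries, the genes most like Shmt2 in log2 level were Vegfa, with a Pearson r of 0.974, Zfp238 with 0.972, St3gal1 with 0.971, Pgm2 with 0.97 and Fam162a with 0.969. Vegfa encodes a vascular growth factor and is among the 12 HIF targets. The 3 treatments are shared by all points, so these are descriptions of the same group differences.

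Around the 10 enzymes, the lists of related genes, which include the enzymes, were followed in the same comparisons. Of the 67 tested genes of the 7 lists in liver RNA, 19 were called with DMOG, against 20% of all genes, and 33 without replicate 5, against 35.5%. With roxadustat 8 were called, against 4.19%, and 10 without that DMOG library, against 8.78%. Of 11 tested genes of serine and glycine interconversion and breakdown, DMOG raised 1 in liver RNA, Shmt2, and lowered 3. The third of these beside Shmt1 and Gldc was Amt, the aminomethyltransferase of the glycine cleavage system, which had 28.9 ± 10.9 FPKM in DMOG livers and 40.6 ± 3.29 FPKM in PBS livers (log2 change -0.55 ± 0.18, limma adjusted p = 0.0343). Without replicate 5 Gcsh, the hydrogen carrier protein of that system, was also lower (-0.47 ± 0.15, limma adjusted p = 0.0205). With roxadustat, Shmt2 alone of the 11 was called. The median log2 change of the list was -0.16 with DMOG and -0.18 with roxadustat, beside 0.01 and 0.00 over all genes.

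Of 18 tested folate carriers and enzymes, 2 rose and 3 fell with DMOG in liver RNA, beside 8.26% higher and 11.7% lower of all genes, and 2 rose and 2 fell with roxadustat, beside 2.16% and 2.02%. Mthfd1l and Fpgs rose with both drugs, which share their PBS controls. Mthfd1l, which makes formate from the mitochondrial folate unit, averaged 8.12 ± 2.196 FPKM in DMOG livers, 7.16 ± 0.965 FPKM in roxadustat livers and 4.17 ± 0.460 FPKM in PBS livers. Its log2 change was 0.84 ± 0.16 with DMOG (limma adjusted p = 0.00175) and 0.71 ± 0.16 with roxadustat (limma adjusted p = 0.0135). Fpgs, which adds glutamates to folate and so retains it in the cell, averaged 51.8 ± 10.3 FPKM with DMOG, 52.9 ± 6.03 FPKM with roxadustat and 31.3 ± 3.64 FPKM with PBS. Sfxn1, a mitochondrial serine transporter gene, fell with both drugs, by 0.59 ± 0.14 with DMOG and by 0.57 ± 0.14 with roxadustat (limma adjusted p = 0.00673 and 0.0254). The other calls were Slc46a1 (-0.66 ± 0.16), a folate transporter, and Gart (-0.25 ± 0.067), a purine synthesis enzyme, with DMOG, and Mthfd1 (-0.40 ± 0.11), the cytosolic folate enzyme, with roxadustat. Without replicate 5 the folate list had 3 higher and 6 lower with DMOG, against 17.3% higher and 18.1% lower of all genes. With roxadustat it then had 3 higher and 2 lower, against 8.78% of all genes in either direction.

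Among the 4 tested serine and glycine transporters, Slc1a4, a neutral amino acid transporter that carries serine, changed most. It averaged 67.5 ± 23.3 FPKM in DMOG livers, 67.4 ± 8.48 FPKM in roxadustat livers and 22.6 ± 2.10 FPKM in PBS livers. The log2 change was 1.46 ± 0.21 with DMOG (limma adjusted p = 0.000792) and 1.55 ± 0.21 with roxadustat (limma adjusted p = 0.000555). Slc38a2 rose with DMOG as well (0.58 ± 0.17, limma adjusted p = 0.0191). For this list and the others of this paragraph, the shares of all genes were 8.26% higher and 11.7% lower with DMOG. With roxadustat they were 2.16% and 2.02%. Of 12 tested genes of the methionine cycle and transsulfuration, DMOG raised Cth, the cystathionine lyase gene (1.05 ± 0.26, limma adjusted p = 0.0099), and Ahcyl1 (0.37 ± 0.077, limma adjusted p = 0.00324), and roxadustat raised none. Without replicate 5 the DMOG count was 5 higher, with Mat2a (0.32 ± 0.078), Ahcyl2 (0.27 ± 0.084) and Mtr (0.23 ± 0.080) added. Of all genes, 17.3% were called higher and 18.1% lower in that fit. Ahcyl1 was also lower with roxadustat than with DMOG (-0.38 ± 0.077, limma adjusted p = 0.0151), the one call of these lists in that comparison, to which equal library totals added Sesn2 (0.50). Without replicate 5 that comparison had 12 calls in these lists, 5 higher and 7 lower with roxadustat, against 16.2% of all genes. Beside the 4 enzymes given above and Ahcyl1, they were Slc46a1, Mthfd1l, Cth, Mat2a, Myc, Sesn2 and Atf4. Of 10 genes that use S-adenosylmethionine or break down betaine, Chdh, which makes betaine from choline, rose with DMOG (0.72 ± 0.14) and roxadustat (0.75 ± 0.14), and Gatm, the first enzyme of creatine synthesis, rose with DMOG (0.49 ± 0.16). Without replicate 5 this list had 3 higher and 1 lower with DMOG, against the same 17.3% and 18.1% of all genes. The further ones were Nnmt (1.03 ± 0.39), which methylates nicotinamide, and Gamt (-0.51 ± 0.15), the second enzyme of creatine synthesis.

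The regulators of serine synthesis and of the amino acid stress response did not move one way. Of 9 tested in liver RNA, DMOG raised Atf4 (0.25 ± 0.079) and Ddit3 (0.39 ± 0.11) and lowered Atf5 (-0.64 ± 0.18) and Sesn2 (-0.44 ± 0.14). Of all genes, 8.26% were called higher and 11.7% lower with DMOG. Atf4 and Atf5 encode transcription factors of that response, and Ddit3 and Sesn2 are among its known targets. Without replicate 5 the list had 4 higher and 3 lower with DMOG, against 17.3% higher and 18.1% lower of all genes. Myc (0.53 ± 0.10) and Cebpb (0.61 ± 0.21) were then also called higher and Asns (-0.42 ± 0.16), the asparagine synthetase gene, lower. With roxadustat, Cebpb alone was called (0.84 ± 0.20, limma adjusted p = 0.0231), against 4.19% of all genes. With all libraries, none of the 3 serine synthesis genes was called with either drug. When library totals were made equal, no called gene of these lists changed sign with either drug. With DMOG, Gatm (0.40), Atf4 (0.16) and Ddit3 (0.31) then lost their calls, and Gcsh, Mthfd1, Atic, Ftcd, Gamt and Pipox gained one, with log2 changes of -0.50 to -0.26. Beside these lists, 11 of 12 HIF targets rose with DMOG and 10 of 12 with roxadustat.

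Retina RNA was next compared in the same way. None of the 8 enzymes tested was called with DMOG, against 1.07% of all 13779 genes, with roxadustat, against 2.34%, or between the drugs, against 1.31%. These 3 comparisons by limma called 147, 323 and 181 genes in all, and had 1892, 2409 and 1503 at an unadjusted p under 0.05. None of the other genes of the 7 pathway lists was called either, although Aldh7a1 was with equal library totals for DMOG (-0.22 in log2, limma adjusted p = 0.0404), while 2 of 12 HIF targets rose with DMOG and 9 with roxadustat.

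**Figure D4:**
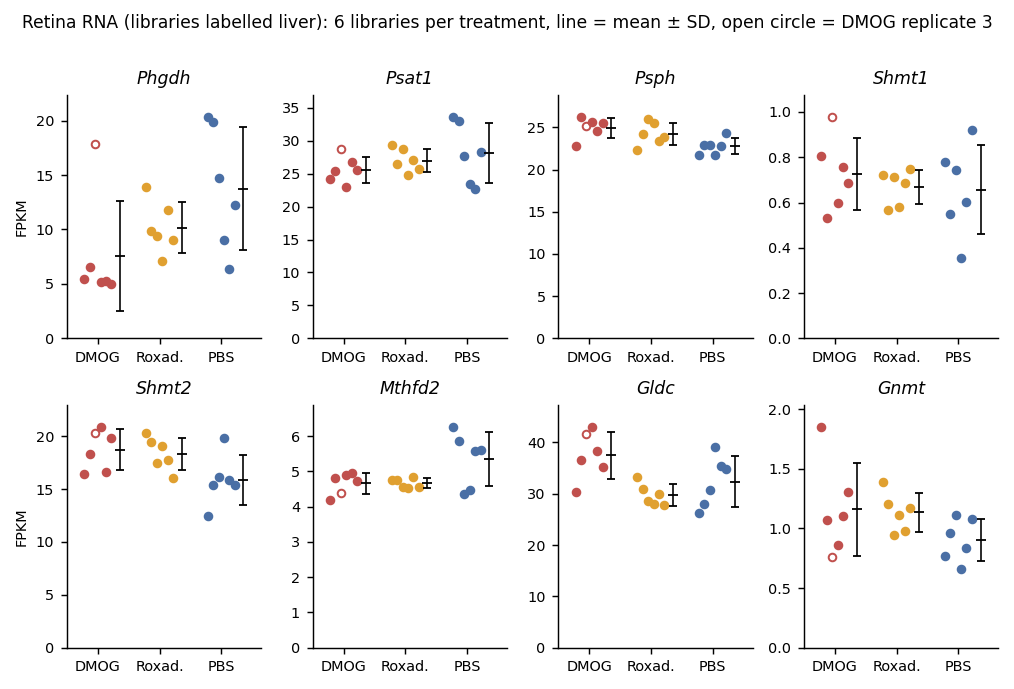
Level of the 8 enzymes tested in retina RNA (libraries labelled liver), in FPKM on linear axes from 0, with 6 libraries per treatment as points and the mean ± SD as a line beside them; the open circle is DMOG replicate 3. Phgdh is near 5 FPKM in 5 of the 6 DMOG libraries and 17.8 FPKM in the open circle, and the treatments overlap for all 8 genes.

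Phgdh, the first enzyme of serine synthesis, spread widely in retina RNA. It had 4.97, 5.36 and 17.8 FPKM as the lowest, median and highest value in DMOG retinas, 7.06, 9.63 and 13.9 FPKM in roxadustat retinas, and 6.40, 13.5 and 20.3 FPKM in PBS retinas. The highest DMOG value was replicate 3, and the other 5 lay at 4.97 to 6.53 FPKM, of which 4 were below every PBS library. The log2 difference of DMOG from PBS was -0.88 ± 0.29 and was not called (limma adjusted p = 0.169). Without DMOG replicate 3 Phgdh fell by 1.15 ± 0.23 (limma adjusted p = 0.012) and was called. That library stands out by its own Phgdh value, so this p-value is not a separate test of the fall. In the other 17 of 18 fits that left out 1 library, Phgdh was not called. Roxadustat differed from PBS by -0.34 ± 0.29.

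The lens markers differed between the same groups. The sum of 4 lens markers, all above 0, was 11.5, 157 and 884 FPKM as lowest, median and highest value in DMOG retinas, 191, 532 and 11830 FPKM in roxadustat retinas, and 2027, 8876 and 22660 FPKM in PBS retinas. DMOG replicate 3 had the highest lens sum of its group, at 884 FPKM. It was not extreme for lens alone. Its sums were also the highest of the group for astrocyte (22.8 FPKM), endothelial (48.1 FPKM) and cell division markers (6.15 FPKM). They were the lowest for retinal pigment epithelium (29.0 FPKM), hepatocyte (40.7 FPKM) and erythroid markers (23.2 FPKM). The part of lens RNA or of these other cells in the Phgdh values was not tested. The genes most like Phgdh over the 18 retina RNA libraries were Gstm1, with a Pearson r of 0.982, Col4a4 with 0.981, Col4a3 with 0.98, Arsi with 0.979 and Dmrta2 with 0.974.

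**Figure D5:**
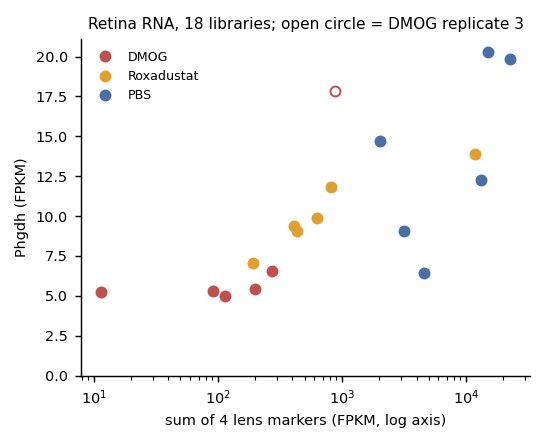
Level of Phgdh (FPKM, linear axis) against the sum of 4 lens markers (FPKM, log axis) in the 18 retina RNA libraries; colours give the treatment and the open circle is DMOG replicate 3. The DMOG libraries lie at lens sums of 11.5 to 884 FPKM and the PBS libraries at 2027 to 22660 FPKM, and the open circle has both the highest lens sum and the highest Phgdh level of the DMOG libraries.

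The other 7 enzymes gave no call in retina RNA either. Psph had a median of 25.3 FPKM in DMOG retinas, 24.0 FPKM in roxadustat retinas and 22.8 FPKM in PBS retinas, and 5 of 6 DMOG libraries lay above every PBS library (0.13 ± 0.044, limma adjusted p = 0.174). Shmt2 had 16.4, 19.1 and 20.9 FPKM in DMOG retinas, 16.1, 18.4 and 20.3 FPKM in roxadustat retinas, and 12.4, 15.7 and 19.9 FPKM in PBS retinas. Its log2 difference from PBS was 0.24 ± 0.088 with DMOG (limma adjusted p = 0.222) and 0.21 ± 0.088 with roxadustat (limma adjusted p = 0.211). Without PBS replicate 4 the DMOG difference of Shmt2 was 0.31 ± 0.079 and was called (limma adjusted p = 0.0451). It was not called in the other 17 of 18 fits that left out 1 library. Mthfd2 had a median of 4.78 FPKM in DMOG retinas, 4.65 FPKM in roxadustat retinas and 5.59 FPKM in PBS retinas, with log2 differences of -0.17 ± 0.073 for each drug. Gldc had a median of 37.4 FPKM with DMOG, 29.3 FPKM with roxadustat and 32.7 FPKM with PBS, and roxadustat over DMOG gave -0.32 ± 0.092 (limma adjusted p = 0.116). That difference was called without DMOG replicate 1 (-0.38 ± 0.088, limma adjusted p = 0.0346), but not in the other 17 of 18 such fits. Psat1, Shmt1 and Gnmt had log2 differences between -0.12 and 0.22 with either drug.

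The last question is whether the response to a drug differed between liver RNA and retina RNA. The DMOG response, taken as the log2 change in liver RNA minus that in retina RNA, differed for 6 of the 8 enzymes that could be tested, against 15.9% of 11101 genes, with 6.97% higher in liver RNA and 8.91% lower. Of the 12 HIF targets, 11 were called higher in liver RNA, with a median difference of 1.23. How far the enzyme differences follow that of the HIF targets was not tested. The DMOG response was lower in liver RNA for Gldc, which changed by -1.22 in liver RNA and 0.21 in retina RNA (difference -1.43 ± 0.30, limma adjusted p = 0.00172). Shmt1 changed by -0.90 in liver RNA and 0.09 in retina RNA (-0.99 ± 0.23, limma adjusted p = 0.0044), and Psph by -0.25 and 0.13 in the same order (-0.38 ± 0.12, limma adjusted p = 0.0307). The response was higher in liver RNA for Shmt2, with 0.82 in liver RNA and 0.24 in retina RNA (0.58 ± 0.17, limma adjusted p = 0.0212). Mthfd2 (0.57 ± 0.19, limma adjusted p = 0.0395) and Phgdh (1.03 ± 0.36, limma adjusted p = 0.0446) were called near the threshold. The differences of Gldc, Shmt1 and Shmt2 stayed past the threshold in all 45, 44 and 45 alternatives run, those of Psph in 42 of 45, of Mthfd2 in 27 of 44 and of Phgdh in 24 of 45. Without DMOG replicate 5 of the liver RNA these 6 were called and Psat1 was added (0.52 ± 0.19, limma adjusted p = 0.038). That fit called 3202 of the 11101 genes, 1478 higher and 1724 lower in liver RNA. For the roxadustat response none of the 8 was called by limma, against 2.24% of all genes, with 249 genes called and 1733 at an unadjusted p under 0.05. The largest such difference was that of Gnmt, -0.53 with a 95% interval from -1.26 to 0.20, and that of Shmt2 was 0.33 (-0.02 to 0.68). That of Mthfd2 was 0.49, with an interval that left out 0 (0.10 to 0.88, limma adjusted p = 0.188). Whether the DMOG and roxadustat responses differ from each other between the tissues was not tested.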

How the data were processed

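The deposited values are FPKM, 1 column per library, made by the authors. Per the submitters' processing notes, bcl2fastq 1.8.3, TopHat2 (version 2) and Cuffdiff 2.2.1 were used with the mouse build mm9. The annotation, the scaling between libraries and any use of strand in counting are not given in the sources used here, and replicates were not pooled. Each table lists 22558 genes, of which 25 carry a spreadsheet date as name, and 1 row of totals was left out. No read counts are given, so no counting intervals are printed.

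A gene entered the test where its table mean, taken over 18 libraries, reached 0.5 FPKM. These were 12657 in liver RNA with 10 of the 10 enzymes and 13779 in retina RNA with 8 of the 10. The tested value was log2(FPKM + 0.5), on which changes of low genes come out too small. limma 3.58.1 (R 4.3.3) fitted 3 group means per table, with empirical Bayes and a mean trend, two-sided p-values and a threshold of 0.05 after Benjamini-Hochberg adjustment across the genes of the table. The difference of a drug's response between the tables was fitted over all 36 libraries, for 11101 genes that passed in both. Script steps were tested on simulated data. Single genes and ratios had exact permutation tests over 924 assignments. Figures were drawn with matplotlib 3.10.9 in Python 3.11.15.

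The enzymes, the 7 pathway lists, the 12 HIF targets and the 10 marker lists were chosen with earlier results of these data known. The rule was to name all 10 enzymes, up to 3 called genes per list by adjusted p, and the 5 genes most correlated with the enzyme of smallest p per table. Further list genes are named where a count is 5 or fewer, after their values were seen. Replicate numbers were not used as pairs. Alternatives were a pseudocount of 0.1 or 1, a filter at 5 FPKM or none, equal totals or median ratios, no mean trend, only the 2 groups compared, the replicate number as a block, a sex term from Xist and Y-linked genes, an exact test, and leaving out each library.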

Additional observations from a re-analysis of the deposited data

Results flagged for a closer look

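In 3 of 54 groups of 6 libraries, 1 library lay so far from the others that its gap exceeded Dixon's 95% critical value, which chance gives in about 1 in 20 groups. Gldc had 86.0 FPKM in DMOG replicate 5 of the liver RNA, against 18.9 to 25.8 FPKM in the other 5. Psph had 7.48 FPKM in the same library, against 4.08 to 5.28 FPKM. Phgdh had 17.8 FPKM in DMOG replicate 3 of the retina RNA, against 4.97 to 6.53 FPKM in the other 5.

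The DMOG response of 6 enzymes differed between the tissues by a test of the difference itself in limma, given here as log2 change in liver RNA minus that in retina RNA. It was -1.43 for Gldc, -0.99 for Shmt1, -0.38 for Psph, 0.58 for Shmt2, 0.57 for Mthfd2 and 1.03 for Phgdh. The same test called 11 of 12 HIF targets higher in liver RNA. The Phgdh difference rests on retina RNA, where lens marker sums differed between the treatments, and the part of lens RNA in it was not tested.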

How the results depend on the processing

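Of 2271 recomputed values for 70 enzyme results, 2160 kept direction and side of the threshold, 60 lost the call, 21 gained it and 30 changed sign, none of them among the 10 results called. Causes were not tested. Absolute depth is unknown, and the values near the pseudocount (Shmt1 and Gnmt in retina RNA) are the least certain.

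Genes called changed by over 1.5 times as follows. With a mean of at least 5 FPKM, which tests fewer genes, DMOG gave 1655 calls against 2526 in liver RNA, roxadustat 325 against 530, the DMOG response difference 976 against 1763 and that of roxadustat 113 against 249. With no filter, roxadustat against DMOG in liver RNA gave 232 against 379 and the roxadustat response difference 394. With only the 2 groups compared, DMOG gave 94 in retina RNA, roxadustat 190 in retina RNA and 1229 in liver RNA, and roxadustat against DMOG 62 in liver RNA, where a sex term gave 78. Inferred sexes were unequal in liver RNA, with 4 of 6 DMOG, 1 of 6 roxadustat and 3 of 6 PBS libraries female.

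Enzymes called with roxadustat in liver RNA were 1 as reported, 0 with no filter, 0 with the replicate block (Shmt2 adjusted p = 0.0549) and 2 with only the 2 groups compared. With only the 2 groups compared, the test called 1, Gldc, for roxadustat against DMOG in retina RNA. Deviations from the group means correlated by over 0.1 in 7 of 18 same-numbered pairs in each table, against 31 of 90 differently numbered pairs in liver RNA and 25 of 90 in retina RNA (median r 0.0433 against 0.0103, and 0.0707 against -0.0112). The numbers were not used as pairs, and these correlations cannot decide whether they should be. By inferred sex, the DMOG group had 4 female and 2 male libraries in liver RNA, against 2 and 4 in retina RNA. For roxadustat it was 1 and 5 against 3 and 3. If these sexes hold, not all same-numbered libraries of the 2 tables in these groups share an animal. Whether any do was not checked, and the response differences treat them as independent. The replicate block changed no other call except that Psat1 gained one in the DMOG response difference (adjusted p = 0.0271).

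Equal totals moved the share of higher genes among those called to 31.4% from 51.7% for roxadustat in liver RNA, to 82.6% from 62% for roxadustat against DMOG there, to 23.2% from 43.9% for the DMOG response difference and to 42.3% from 54.2% for that of roxadustat, with medians over all genes shifted by under 0.1.

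Leaving out 1 library gave 1809 to 4489 genes and 3 to 5 enzymes for DMOG in liver RNA, 344 to 1111 and 0 to 2 for roxadustat, 104 to 2052 and 0 to 4 for roxadustat against DMOG, the highest values being those without DMOG replicate 5. In retina RNA it gave 48 to 420 genes and 0 to 1 enzymes for DMOG (420 without PBS replicate 4), 211 to 481 genes for roxadustat, and 0 to 1 enzymes for roxadustat against DMOG. The response differences had 1385 to 3202 genes and 3 to 7 enzymes for DMOG, and 160 to 527 genes for roxadustat. The log2 ratio of Shmt2 to Shmt1 ran from 1.59 to 2.09 for DMOG minus PBS and from -1.21 to -0.71 for roxadustat minus DMOG in liver RNA, and from -0.022 to 0.095 for roxadustat minus DMOG in retina RNA.

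The sign changes were all of uncalled values near 0. For roxadustat against DMOG in retina RNA, Gnmt was -0.00621 with equal totals and -0.00316 with a pseudocount of 1, Mthfd2 was -0.00644 with equal totals, and leaving out 1 library gave -0.071 to 0.11 for Gnmt, -0.025 to 0.018 for Mthfd2 and -0.063 to 0.0087 for Shmt2. In liver RNA the same comparison gave 0.067 for Mthfd2 with a sex term, 0.036 for Phgdh with equal totals and 0.15 with a sex term, and -0.19 to 0.0083 for Mthfd2 and -0.095 to 0.17 for Phgdh with 1 library left out. For roxadustat against PBS, leaving out 1 library gave -0.10 to 0.0090 for Psat1 and -0.053 to 0.093 for Shmt1 in retina RNA, and -0.028 to 0.22 for Psat1 in liver RNA.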
